A study of Rattus norvegicus with 16 samples.

Results

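The right and left kidneys of 8 rats were compared within each animal, whatever the right kidney had been given, to find which transcripts differed between the sides in the same direction in every rat. Arrays were taken as right or left, and as belonging to a rat, from their titles, and all 16 of the 16 arrays in the series (8 left and 8 right) entered the comparison. The right kidney had received ACTH (adrenocorticotropic hormone, the pituitary hormone that drives steroid output of the adrenal cortex) in rats 1 and 5, DEX (an abbreviation that the labels do not expand) in rats 3 and 7, and saline in rats 2, 4, 6 and 8, with the untreated left kidney as the control within the animal. The series text speaks of 2 rats per treatment, whereas the titles name 4 saline rats, and the titles were followed. The labels leave out dose, route, duration, strain, sex and age, and they do not say whether the agents reached the left kidney. Because every right kidney had been treated and no left kidney had, the side of the body and the treatment of the right kidney cannot be told apart, also in the saline rats.

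The kidneys of a rat share genome, blood and diet, so a comparison within an animal removes much of what differs between animals. The nephron, the filtering unit, runs from the glomerulus through the proximal tubule, the loop of Henle and the distal tubule to the collecting duct. Proximal tubule cells live largely on fatty acid oxidation in mitochondria and peroxisomes. Stearoyl-CoA desaturases act in the other direction of lipid metabolism and put a double bond into saturated fatty acids, which then go into triglycerides and membrane lipids. On the array each gene is read by 1 or more probe sets, groups of short oligonucleotides whose combined signal is 1 value.

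All 13 proximal tubule genes on the array were bright enough to test, and they are taken up again with the other lists. So were 9 of 10 adipose genes, so passing the brightness limit does not by itself identify the tissue. The array medians lay between 76.0 and 82.4 signal units, and precision is limited by how many arrays there were. Earlier work on these data had shown that rats 1 to 4 and rats 5 to 8 form separate clusters that the labels do not name, each with 1 ACTH, 1 DEX and 2 saline rats, so values are also given within each. In whole tissue, fewer cells of a type and less RNA per cell cannot be told apart.

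Scd2, a stearoyl-CoA desaturase, and Acaa1b, a peroxisomal 3-ketoacyl-CoA thiolase that cleaves the last bond in each round of fatty acid shortening, were the named genes that rose in the right kidney. Scd2 was 2.24-fold higher on its brightest probe set and Acaa1b 1.54-fold higher, and each was higher on the right in all 8 rats. Of the 5244 probe sets tested, 7 (0.133%) passed an adjusted p of 0.05 in limma's paired fit, of which 5 (0.0953%) were higher in the right kidney and 2 (0.0381%) lower. The 5 that rose were 4 of Scd2 and 1 of Acaa1b, and the 2 that fell were 1 of Cdc42 and 1 without a gene symbol. At an unadjusted p under 0.05 there were 699 (13.3%), of which 438 (8.35% of those tested) were higher and 261 (4.98%) lower. A mean change above 0 was measured for 54.7% of the probe sets. The count of 7 was 4 without rat 4 and 4 without rat 7.

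The promoters of the genes that rose together are shown because their changes ran in the same direction in every rat. Each sequence holds the 250 bases before the annotated start of transcription, from RefSeq on the GRCr8 build, and capitals mark CCAAT, the letters of the CCAAT box, or its reverse complement ATTGG. Scd2 lies on the plus strand and its window is chr1:253118127-253118376. Acaa1b lies on the minus strand and its window is chr8:127759570-127759819.
Scd2: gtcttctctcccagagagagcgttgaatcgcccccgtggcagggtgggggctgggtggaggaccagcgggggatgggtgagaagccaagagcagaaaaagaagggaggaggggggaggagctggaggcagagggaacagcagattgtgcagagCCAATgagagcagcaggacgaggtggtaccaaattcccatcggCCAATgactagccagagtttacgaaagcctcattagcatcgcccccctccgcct
Acaa1b: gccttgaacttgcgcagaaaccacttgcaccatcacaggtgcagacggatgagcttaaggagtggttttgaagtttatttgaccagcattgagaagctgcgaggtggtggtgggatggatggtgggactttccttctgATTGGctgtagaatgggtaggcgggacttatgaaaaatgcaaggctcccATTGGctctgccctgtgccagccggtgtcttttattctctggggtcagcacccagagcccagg
CCAAT was found 2 times in each window, 97 and 54 bases before the start in Scd2 and 112 and 63 in Acaa1b. Of 33469 rat promoter windows of the same length, 34.0% hold it at least 1 time on either strand. The share that holds it 2 times was not counted. TCACNCCAC, letters of a sterol regulatory element, occurred in neither window and in 0.974% of all windows. A DR1 element, AGGTCA repeated after 1 base of any kind and bound by nuclear receptors such as PPAR-alpha, occurred in neither and in 0.0508% of all. TATAAA, the TATA box, occurred in neither and in 12.9% of all. Both strands were searched for each motif.

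The probe set rc_AA875269_at of Scd2 gave 245, 122, 434, 454, 83.0, 124, 102 and 164 signal units in the left kidneys of rats 1 to 8. In the right kidneys it gave 702, 306, 793, 1006, 318, 146, 268 and 474. The ranges of the sides overlapped, because the rats differed widely among themselves, but within each rat the right kidney was the higher one. The mean was 216 ± 149 (SD, n = 8) on the left and 502 ± 301 on the right. The log2 change was 1.17 ± 0.13 (SE, 8 rats, adjusted p = 0.0033), with 0.21 in rat 6 as the smallest and 1.76 in rat 5 as the largest.

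Of the 5 other Scd2 probe sets, 3 also passed. M15114_g_at ran from 124 to 304 on the left (median 163) and from 185 to 648 on the right (median 348), a change of 0.89 ± 0.08 (adjusted p = 0.000355). AF036761_at ran from 43.5 to 228 on the left (median 103) and from 51.1 to 592 on the right (median 195), a change of 0.85 ± 0.12 (adjusted p = 0.0117). U67995_s_at ran from 58.6 to 110 on the left (median 79.6) and from 79.0 to 235 on the right (median 130), a change of 0.70 ± 0.09 (adjusted p = 0.00621). AF036761_at did not pass without rat 4 (adjusted p = 0.0544) or rat 7 (0.0501). These 3 probe sets were higher on the right in all 8 rats, although in each of them the ranges of the sides overlapped. A further probe set, S75730_at, did not pass the threshold, with a change of 0.39 ± 0.10, higher in 7 of 8 rats (adjusted p = 0.152). The dimmest of the 6 Scd2 probe sets, M15114_at, was below the brightness limit for testing and had a mean change of -0.02, higher in 4 of 8 rats.

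Acaa1b has 1 probe set on the array. Its signal was 258, 279, 281, 323, 291, 334, 465 and 428 in the left kidneys of rats 1 to 8. In the right kidneys it was 404, 337, 482, 628, 545, 411, 682 and 736. Each right kidney stood above its left partner, while the ranges of the sides overlapped. The means were 332 ± 75.2 (SD, n = 8) on the left and 528 ± 144 on the right, a log2 change of 0.63 ± 0.08 (SE, adjusted p = 0.0088). The smallest change was 0.26 in rat 2 and the largest 0.93 in rat 4.

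**Figure D1:**
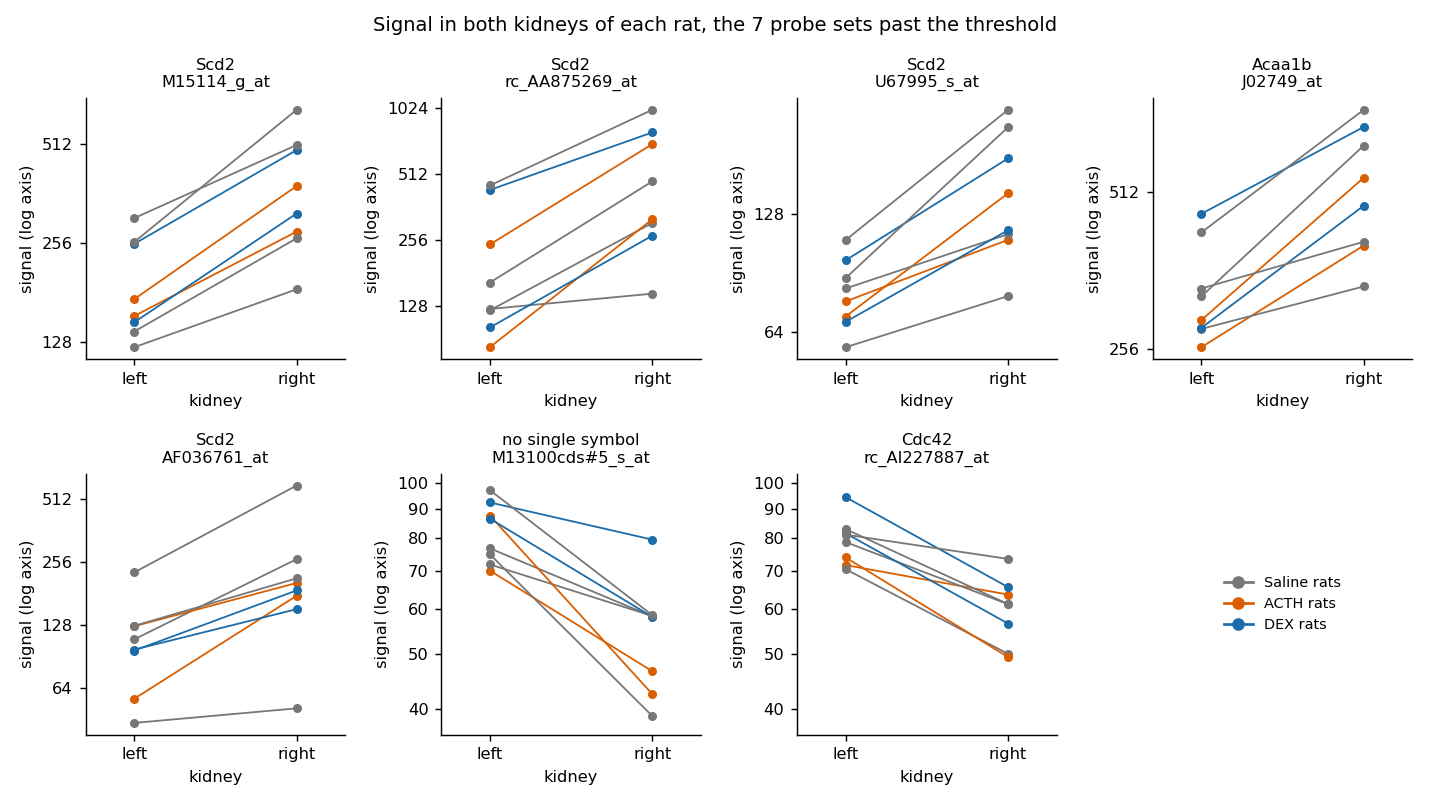
Signal (log axis, signal units) of the 7 probe sets past the threshold in the left and right kidney, 1 line per rat, coloured by what the right kidney had been given. Every line of the 4 Scd2 panels and of Acaa1b goes up and every line of M13100cds#5_s_at and Cdc42 goes down, and for Scd2 rc_AA875269_at the lines span 83.0 to 454 on the left and 146 to 1006 on the right.

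The mean change of Scd2 (rc_AA875269_at) was 1.16 over rats 1 to 4 and 1.17 over rats 5 to 8, and that of Acaa1b 0.64 and 0.61. The other Scd2 probe sets that passed had 0.94 and 0.84 (M15114_g_at), 0.79 and 0.62 (U67995_s_at) and 0.82 and 0.87 (AF036761_at). Cdc42 (rc_AI227887_at) had -0.31 and -0.34. M13100cds#5_s_at differed more, with -0.30 over rats 1 to 4 and -0.66 over rats 5 to 8. By treatment, Scd2 had a mean change of 1.00 in saline, 1.61 in ACTH and 1.06 in DEX rats, and Acaa1b of 0.56, 0.75 and 0.64. None of the 7 probe sets had an unadjusted p under 0.05 in the F test for a difference between treatments, a test in which the hormone groups have 2 rats each. The paired fit keeps treatment differences in its residual, so its choice of the 7 favours a high p in the F test. The change of the 4 saline rats was also estimated from a limma fit of all 8 rats with ACTH and DEX terms. The residual spread of that fit was pooled over the treatments. It gave 1.00 ± 0.17 (SE) for Scd2 and 0.56 ± 0.12 for Acaa1b. No probe set passed adjustment there (Scd2 adjusted p = 0.144, Acaa1b 0.478), against 196 with an unadjusted p under 0.05. Over the 4 saline rats themselves, the SD of the change was 0.55 for Scd2 and 0.34 for Acaa1b. Within rats 1 to 4 alone 1 probe set passed, Scd2 rc_AA875269_at, and within rats 5 to 8 alone none did, against 359 with an unadjusted p under 0.05.

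Adipose markers varied between the sides, without a common direction. Of 9 fat genes tested, 3 had a mean change above 0, the mean over the list ran from -1.16 in rat 7 to 1.59 in rat 1, and it was above 0 in 4 of 8 rats. Scd, a desaturase close in sequence to Scd2 and abundant in fat, changed by 2.42, 0.38, -3.48, -1.51, 1.75, -3.30, -0.56 and 0.19 in rats 1 to 8. In rats 3, 4, 6 and 7 it was lower on the right while Scd2 was higher. The smallest changes of Scd2 rc_AA875269_at, 0.21 in rat 6 and 0.85 in rat 3, were in the rats where Scd fell most. On the other Scd2 probe sets that passed, the smallest change was in rat 2. A link between Scd and Scd2 was not tested. With the fat score of each array as a covariate, the change of Scd2 was 1.20 ± 0.11 (adjusted p = 0.000355) and that of Acaa1b 0.63 ± 0.09 (adjusted p = 0.0073), and 36 probe sets passed.

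The array also reads GAPDH at the 3' and 5' end of its message, and the gap between the ends widens where RNA is less intact. The right kidney had the smaller gap in 7 of 8 rats, by a mean log2 difference of -0.13 ± 0.15 (SD, n = 8; exact sign-flip permutation test, two-sided p = 0.0312). The same difference was -0.06 for beta-actin (exact p = 0.273) and -0.04 for hexokinase (exact p = 0.594). With the GAPDH gap as a covariate, chosen after the data were seen, 1 probe set passed, Scd2 M15114_g_at at 0.94 ± 0.11 (adjusted p = 0.0139). Scd2 rc_AA875269_at then had 1.10 ± 0.19 (adjusted p = 0.0813) and Acaa1b 0.72 ± 0.11 (adjusted p = 0.0511).

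The falls were smaller and dimmer. Cdc42, a small GTPase that organises actin, fell on the probe set rc_AI227887_at, from a left range of 70.5 to 94.5 (median 80.0) to a right range of 49.4 to 73.5 (median 61.2), with overlap of the sides. The change was -0.33 ± 0.05 (adjusted p = 0.0397), lower in all 8 rats. It was named after its values were seen, because the 3 other Cdc42 probe sets were brighter and did not pass, with changes of -0.16, -0.11 and -0.13, lower in 7, 4 and 4 of 8 rats. The second fall, M13100cds#5_s_at, has no gene symbol in the annotation. It ran from 70.1 to 97.2 on the left (median 81.7) and from 38.9 to 79.5 on the right (median 58.2), a change of -0.48 ± 0.07 (adjusted p = 0.0209). Cdc42 did not pass without rat 2, 3, 4, 5, 6 or 7, with adjusted p up to 0.134, and M13100cds#5_s_at did not pass without rat 1, 4, 6, 7 or 8, with adjusted p up to 0.0866. Further probe sets without a symbol, M13100cds#3_f_at and AF030091UTR#1_at, had changes of -0.42 ± 0.08 (adjusted p = 0.0829) and -0.41 ± 0.08 (adjusted p = 0.0914).

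Across the whole array, few transcripts moved alike in every rat. A higher signal on the right in all 8 rats was seen for 118 probe sets (2.25%) and a lower one for 54 (1.03%), together 172 (3.28%). In genes, each counted by its brightest probe set, 74 of 3193 were higher in every rat and 27 lower. The median change was 0.22 among the 118 and -0.23 among the 54, against 0.01 over all probe sets tested, and the choice by sign sets those directions. The change profiles of different rats were only weakly related. Over the 28 pairs of rats, Pearson's r across the 5244 probe sets had a median of 0.08 and ran from -0.10 to 0.54, with the highest value for rats 3 and 4. These are correlations across probe sets, which are not independent replicates.

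Rises and falls lay at different brightness. The 118 had a median mean signal of 294 and the 54 one of 111, with 157 over all tested. With the probe sets split by brightness into 5 classes of equal size, from the dimmest to the brightest, 6, 17, 21, 35 and 39 were higher in all 8 rats and 16, 21, 7, 3 and 7 lower, while the median change ran from -0.014 to 0.055. The balance depended on scaling, since quantile normalization gave 94 higher and 65 lower and centring each array on its median gave 146 and 38, both chosen after the data were seen.

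**Figure D2:**
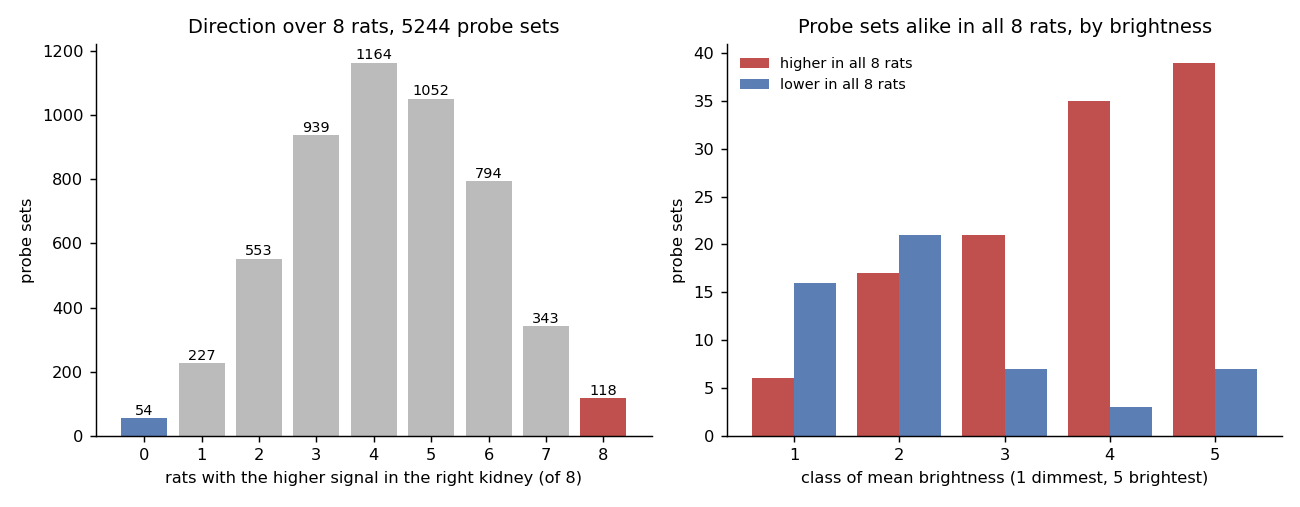
Left, number of probe sets by how many of the 8 rats had the higher signal in the right kidney, with 54 at 0 rats and 118 at 8 rats. Right, number of probe sets higher (red) or lower (blue) in all 8 rats in each of 5 brightness classes, where the higher ones grow from 6 in the dimmest to 39 in the brightest class.

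Besides Scd2 and Acaa1b, 10 genes higher in all 8 rats were followed, taken in order of p value, and none passed adjustment. Among secreted enzymes, Plau, the urokinase that activates plasminogen, ran from 920 to 1634 on the left (median 1069) and from 1163 to 1819 on the right (median 1342), a change of 0.32 ± 0.06 (adjusted p = 0.0882). Dnase1, the DNA-cleaving enzyme released into urine, ran from 905 to 2822 on the left (median 1653) and from 1636 to 3127 on the right (median 2306), a change of 0.55 ± 0.13 (adjusted p = 0.115). Its changes of 1.37 and 1.00 in the ACTH rats were the largest, and the saline rats lay between 0.05 and 0.48. Sod3, the extracellular superoxide dismutase, had a change of 0.26 ± 0.06 and on a dimmer probe set 0.43, higher in all 8 rats on both. Resp18, a protein of regulated secretory cells, had a change of 0.32 ± 0.06 (adjusted p = 0.0882), and its second probe set 0.33, also higher in every rat.

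Amhr2, the receptor of anti-Mullerian hormone, had 0.23 ± 0.06. Cyfip2, a regulator of actin assembly, had 0.23 ± 0.05, and Mpi, which links mannose to glycolysis, 0.20 ± 0.05. Ttc38 had 0.21 ± 0.05 and Tmem276 0.27 ± 0.06. The other Tmem276 probe sets had 0.16 and 0.07, higher in 8 and 7 of 8 rats. Bcl2l1, an inhibitor of apoptosis, had 0.31 ± 0.08 on its brightest probe set, but its 3 others gave 0.29, 0.12 and -0.09, so the probe sets of this gene disagreed.

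Of the 12 genes lower in all 8 rats that were followed, none passed adjustment. Ptgs2, the inducible cyclooxygenase that makes prostaglandins in the macula densa and medulla, came nearest, with a left range of 70.0 to 115 (median 89.4) and a right range of 54.1 to 84.2 (median 62.9). Its change was -0.35 ± 0.06 (adjusted p = 0.0687), and a dimmer probe set that was not tested had -0.42, lower in all 8 rats. The chemokine Ccl2, which draws monocytes into tissue, ran from 59.6 to 129 on the left (median 84.2) and from 48.8 to 83.0 on the right (median 60.9), a change of -0.33 ± 0.09 (adjusted p = 0.19), and its second probe set had -0.44. Il15, a cytokine that sustains lymphocytes and is made by tubule cells, had -0.32 ± 0.06 (adjusted p = 0.0914). Its dimmer probe sets, not tested, had -0.17 and -0.29, higher in 2 and 0 of 8 rats. The mean signals of Ptgs2, Ccl2 and Il15 were 76.1, 73.8 and 135, below the median of 157 over all probe sets tested, and the ranges of the sides overlapped for each.

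Steroid and vitamin D enzymes were also among them. Cyp27b1, the renal enzyme that makes active vitamin D, had -0.23 ± 0.06, and Hsd17b1, which converts estrone to estradiol, -0.23 ± 0.06. Cyp2c11, a cytochrome P450 known as the male-specific form of rat liver, had the most negative change of any probe set tested, -0.93 ± 0.23 (adjusted p = 0.152). It ran from 152 to 713 on the left (median 332) and from 69.1 to 462 on the right (median 185). Its changes were -2.42 and -1.84 in the ACTH rats and lay between -1.40 and -0.08 in the others, so the sides differed in every rat but by very unequal amounts. Its other probe sets had -0.59 (lower in 7 of 8 rats) and -0.31 (lower in 8). The F test for a difference between treatments gave Cyp2c11 an adjusted p of 0.0597. Pdyn, the precursor of dynorphins, had -0.30 ± 0.06 on a bright probe set and -0.10 on a dim one. Cp, the copper carrier ceruloplasmin, had -0.24 ± 0.06, and the kinase Rps6kb1 -0.25 ± 0.06. Dimmer probe sets that were not tested had -0.006 and -0.04 for Cp, higher in 5 and 2 of 8 rats. For Rps6kb1 such a probe set had -0.10, higher in 3 of 8 rats. Among splicing factors Srsf5 had -0.59 ± 0.13 (adjusted p = 0.106), with -0.41 over rats 1 to 4 and -0.78 over rats 5 to 8. Snrnp70 had -0.23 ± 0.06. Their dimmer probe sets, not tested, had -0.02 for Srsf5 and -0.07 for Snrnp70, higher in 4 and 2 of 8 rats.

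The annotation names Crp, C-reactive protein, for a probe set that had -0.80 ± 0.18 (adjusted p = 0.115) and ran from 97.8 to 290 on the left (median 164) and 44.9 to 167 on the right (median 75.4), with mean changes of -0.37 over rats 1 to 4 and -1.23 over rats 5 to 8. That name is uncertain, since the ID of the probe set ends in _f_at, the suffix for oligonucleotides shared by a family of sequences. A second such probe set had -0.86 (adjusted p = 0.0914), while the third, rc_AA818144_at, which carries no such suffix, was too dim to test and had 0.02, lower in 4 of 8 rats. Of 11 probe sets whose IDs start with M13100, M13101, U83119 or X53581, grouped after their values were seen, all had a negative mean change and 8 were lower in all 8 rats. Over all probe sets tested, 54.7% had a mean change above 0 and 1.03% were lower in all 8 rats. Some of the 11 were too dim to test. Many of their IDs end in _f_at, so they can share sequence and are not separate observations.

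**Figure D3:**
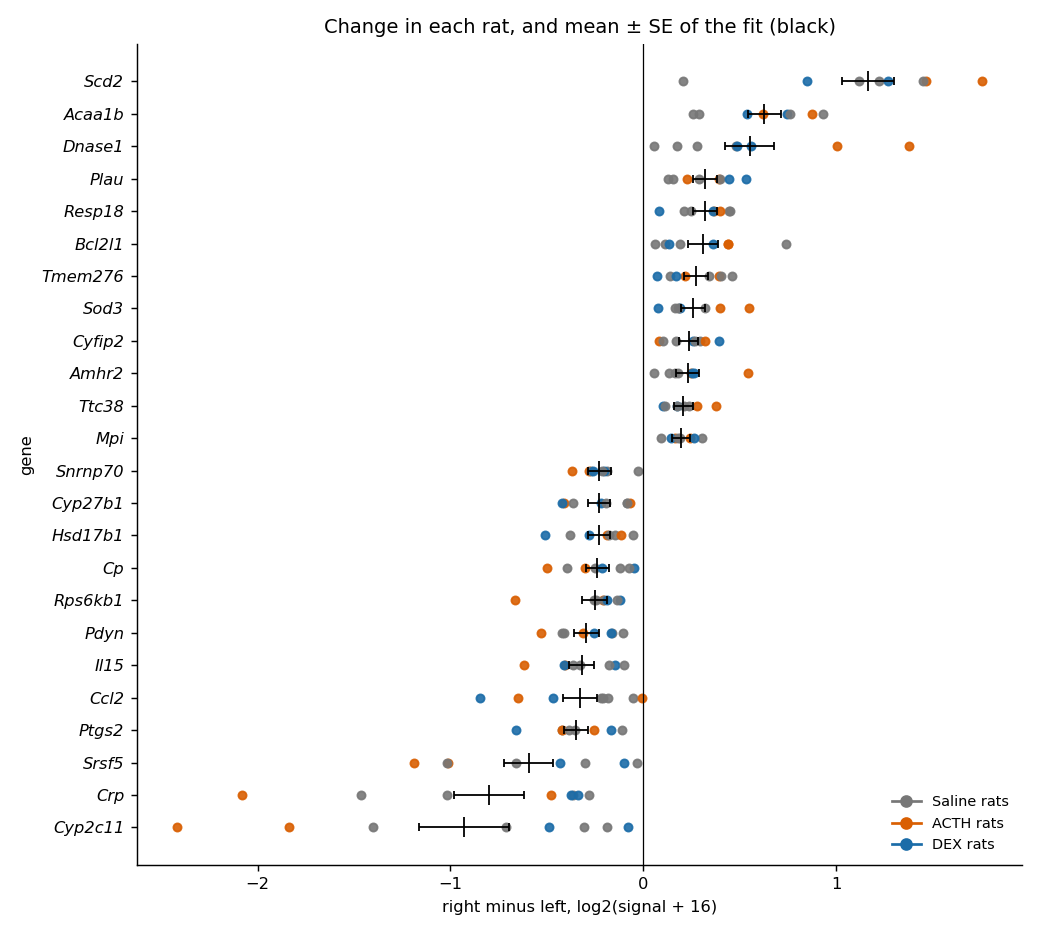
Right minus left change on the log2(signal + 16) scale for the 12 genes followed among those higher in all 8 rats and the 12 among those lower, 1 point per rat coloured by treatment, with the mean and SE of the paired fit in black. All points of a gene lie on 1 side of 0, and Scd2 at 1.17 and Cyp2c11 at -0.93 have the means farthest from 0.

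Steroid-sensing genes gave no change past the threshold. Nr3c1, the glucocorticoid receptor, had 0.09 ± 0.05 (adjusted p = 0.522). Hsd11b2, which inactivates glucocorticoids in the collecting duct, had 0.20 ± 0.10 (adjusted p = 0.408), and Sgk1, a kinase induced by corticosteroids, 0.18 ± 0.15 (adjusted p = 0.609). Sgk1 was higher by 1.42 in rat 3, lay between -0.21 and 0.36 in the other 7 rats, and had a mean of -0.10 in the saline rats.

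Gene lists were described by their counts beside the array as a whole, on which 54.9% of genes had a mean change above 0. That share was 49.5% after quantile normalization and 62.5% after centring each array on its median. In fatty acid oxidation, a list added after values had been seen, 24 of 27 genes had a mean change above 0, with a median of 0.15, and Acaa1b was the only one past the threshold. The list mean was above 0 in all 8 rats, from 0.02 to 0.33. Ehhadh, the bifunctional enzyme of peroxisomal oxidation, ran from 176 to 271 on the left and from 225 to 447 on the right, with a change of 0.49 ± 0.11 in which 7 of 8 rats were higher (adjusted p = 0.113). After quantile normalization the count was 21 of 27, the median 0.08 and the list mean above 0 in 7 rats. In fatty acid synthesis and desaturation, also added later, 9 of 10 genes were above 0 with a median of 0.17, of which Scd2 passed. The mean of that list ran from -0.43 in rat 6 to 1.35 in rat 1 and was above 0 in 6 of 8 rats. Srebf1, a transcription factor of lipid synthesis, had 0.31 ± 0.10 (adjusted p = 0.231).

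Distal tubule genes gave a positive list mean in every rat. All 4 genes tested of the distal convoluted and connecting tubule had a mean change above 0 (3 of 4 after quantile normalization), with a median of 0.20, and none passed. Calb1, the calcium-binding protein of these segments, ran from 261 to 1083 on the left and from 299 to 1715 on the right, with a change of 0.46 ± 0.10, higher in 7 of 8 rats (adjusted p = 0.106). Slc12a3, the thiazide-sensitive sodium chloride transporter, had 0.30 ± 0.11, higher in 7 of 8 rats (adjusted p = 0.28). The list mean ran from 0.03 in rat 6 to 0.69 in rat 5.

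Inflammatory genes lay on the other side. Of 10 cytokine and adhesion genes, 1 had a mean change above 0, the median was -0.12, and the list mean was below 0 in all 8 rats, from -0.28 to -0.01. The count was 1 of 10, with 0 rats above 0, also after quantile normalization and after median centring. Ptgs2 and Ccl2 had the smallest p. The inflammatory list was dim, with a mean log2 signal from 6.75 to 7.14 in the left kidneys, against 8.55 to 8.95 for fatty acid oxidation. Falls in all 8 rats lay more among dim probe sets and rises more among bright ones, while the median change of the dimmest class was -0.014. The part of brightness in these list values was not tested. Leukocyte markers lay on the same side, since 0 of 5 were above 0 with a median of -0.07, as were 0 of 3 spleen and B cell markers (median -0.13). The leukocyte count was 1 of 5 after quantile normalization and after median centring. The spleen and B cell list mean was above 0 in 3 of 8 rats, at -0.855 in rat 1 and from -0.172 to 0.128 in the others. The part of these cells in the inflammatory values was not tested.

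Other segments and compartments showed mixed signs. Mean changes above 0 were found for 9 of 13 proximal tubule genes, led by Cubn, the endocytic receptor cubilin, at 0.31 ± 0.09 and higher in all 8 rats (adjusted p = 0.196). They were found for 9 of 13 collecting duct genes (median 0.09), 3 of 6 of the thick ascending limb (median -0.002), 2 of 2 intercalated cell genes and 2 of 5 podocyte genes. The collecting duct list mean was above 0 in only 2 of 8 rats, at 0.56 in rat 5 and 0.26 in rat 8. Endothelium had 2 of 5, smooth muscle and mesangium 5 of 7 (list mean above 0 in 3 of 8 rats) and erythrocytes 2 of 3. In extracellular matrix 4 of 17 genes were above 0 (median -0.09), with Tnc, tenascin C, at -0.21 ± 0.06 and Dcn, decorin, at -0.29 ± 0.11, and the list mean was above 0 in 3 of 8 rats. None of these genes passed the threshold. Several of these counts depended on scaling. After quantile normalization the proximal tubule had 6 of 13 above 0 (median -0.04), intercalated cells 0 of 2 and erythrocytes 0 of 3, and the medians of the thick ascending limb and podocyte lists turned positive after median centring, at 0.02 and 0.01.

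Neighbouring organs were covered by lists of their own. Adrenal cortex genes had 1 of 4 above 0, with Cyp17a1, the 17-alpha-hydroxylase of steroid synthesis, at -0.25 ± 0.07 and lower in 7 of 8 rats (adjusted p = 0.19). Adrenal medulla had 2 of 3, pancreas 4 of 7 (median 0.04), liver 6 of 9 (median 0.10) and skeletal muscle 1 of 1. In the liver list Cyp2e1, an ethanol-oxidising P450, had 0.24 ± 0.07, higher in all 8 rats (adjusted p = 0.196).

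The remaining lists held stress, regulatory and metabolic genes, none of which passed the threshold. Kidney injury genes had 7 of 14 above 0 (median 0.00), led by Spp1, osteopontin, at 0.22 ± 0.07. Immediate early genes had 4 of 10, heat shock and unfolded protein response genes 8 of 16, and hypoxia response genes 9 of 14, led by Aldoa, the glycolytic aldolase, at 0.43 ± 0.14. Angiotensin and vasoactive genes had 3 of 14 (median -0.06), where Agtr1a, an angiotensin II receptor, had -0.29 ± 0.09. Circadian clock genes had 1 of 8 (median -0.09). Genes of left-right patterning and kidney development had 5 of 7 (median 0.05), with the list mean above 0 in 3 of 8 rats. Bmp4, a growth factor of the kidney and ureter, had the smallest p of that list and ran the other way, at -0.18 ± 0.10, followed by Pax8, a transcription factor of the nephron, at 0.09 ± 0.07. Corticosteroid response genes had 10 of 13 (median 0.04), cholesterol genes 8 of 11 (median 0.10), lysosomal genes 8 of 14 (median 0.06, and -0.01 after quantile normalization) and oxidative phosphorylation genes 16 of 20 (median 0.05). The last count was 6 of 20 after quantile normalization (median -0.02), so its direction depended on scaling. Without rescaling, the mean of the oxidative phosphorylation list was above 0 in 4 of 8 rats. The medians of the kidney injury list (-0.02 after quantile normalization), the immediate early list (0.01 after median centring) and the heat shock list (0.01 after median centring) also crossed 0.

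**Figure D4:**
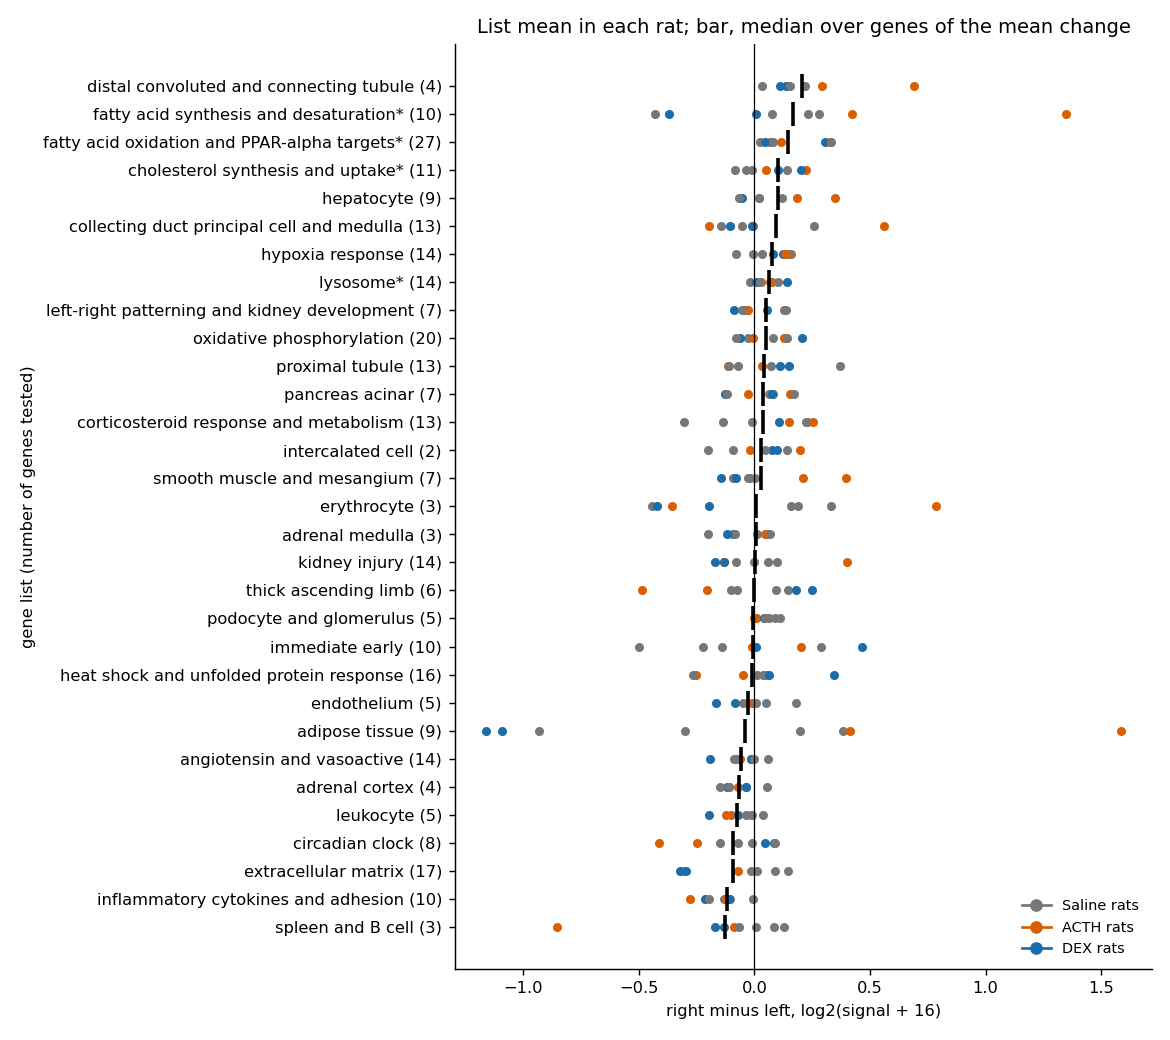
Mean right minus left change over the genes of each list, on the log2(signal + 16) scale, 1 point per rat coloured by treatment, with a black bar at the median over genes and the number of genes tested in brackets. Lists marked * were added after values were seen. Distal convoluted and connecting tubule and fatty acid oxidation have all 8 points above 0, inflammatory genes have all 8 below 0, and adipose genes spread from -1.16 to 1.59.

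Whether the change between the sides differed among saline, ACTH and DEX rats was asked with limma's F test, which called 17 probe sets (0.324%), with 467 (8.91%) at an unadjusted p under 0.05. Of the 17, 2 were alike in direction in all 8 rats. Gp2, a membrane glycoprotein, had a mean change of 0.58, and the change in ACTH rats exceeded that in saline rats by 1.69 ± 0.24 (F test adjusted p = 0.0252). In the saline rats the Gp2 change had a mean of only 0.06 and ran from 0.02 to 0.13. The second Dnase1 probe set had 0.62, with an excess of 1.10 ± 0.18 in ACTH rats (F test adjusted p = 0.0482). When 1 saline rat was left out, the count of 17 ran from 5 without rat 4 to 18 without rat 6. Leaving out a hormone rat leaves 1 rat in its group, so those counts are not given. Changes were more spread in the ACTH rats, with an SD over probe sets of 0.36 and 0.38 against 0.20 to 0.27 in the other 6 rats.

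When the ACTH and DEX differences were given terms of their own and the 3 treatments weighted equally, 114 probe sets (69 higher and 45 lower, 2.17% of those tested) passed right against left. The 7 of the paired fit were among them, and 46 of the 114 were alike in all 8 rats. In the F test for a difference between treatments, 73 of the 114 had an unadjusted p under 0.05, against 8.91% of all probe sets tested. That fit takes the ACTH and DEX differences out of its residual, and the F test has the same residual. The choice of the 114 thus favours a low p in the F test, and the part of treatment in them was not tested. Of the genes followed above, Plau, Resp18, Dnase1, Sod3, Amhr2, Ptgs2, Il15, Pdyn, Srsf5, Crp, Cyp2c11 and Ccl2 passed there, with adjusted p from 0.000798 (Dnase1) to 0.0461 (Pdyn). With the 8 rats weighted equally instead, an alternative chosen after the data were seen, 81 passed and 40 of them were alike in all 8 rats. Of the 81, 46 had an unadjusted p under 0.05 in the F test, with the same limit.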

How the data were processed

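RNA from both kidneys of 8 rats was hybridised to 1-colour arrays, 1 per kidney. Per the labels' protocols, total RNA was extracted with Tri-Reagent, cleaned on RNeasy columns and made into biotin-labelled cRNA. The authors deposited 1 linear signal intensity for each probe set. Which software and normalization produced it is not given in the sources used here. Array medians spanned 0.117 on the log2 scale, so arrays were not scaled again. All deposited columns were used.

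The log2 of value + 16 was analysed, which understates changes of dim probe sets, and folds are on that scale. The 59 control probe sets were removed, leaving 8740, and the 40% with the lowest mean (3496) were left out. Of the 5244 tested, 4408 had 1 gene symbol in the platform annotation (3193 genes), 233 several and 603 none. The annotation names no genome build, so gene positions are given only for the RefSeq promoter windows. The paired fit used limma 3.58.1 under R 4.3.3 and had rat terms and 1 right-kidney term, 7 residual degrees of freedom and a trended prior of 5.47. The F test used added right-kidney terms for ACTH and for DEX. Tests were two-sided, with Benjamini-Hochberg adjustment over all tested probe sets, and 0.05 was the threshold. The fits were tested on simulated data.

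Pairing comes from the rat numbers in the titles, which join kidneys of 1 animal. The deviations of each left and right kidney from the mean of their side correlated with r from 0.461 to 0.728. Genes followed were single-symbol genes, each by its brightest tested probe set: up to 12 higher and 12 lower past the threshold and alike in all 8 rats, filled in order of p value from those alike in all 8 rats, plus Sgk1, Nr3c1 and Hsd11b2, and the 2 members with the smallest p of lists described. The comparison, the 28 gene lists and the rules were chosen with earlier results of these data known, and 4 lists (fatty acid oxidation, fatty acid synthesis, cholesterol, lysosome) were added after values of this comparison were seen. Alternatives changed the normalization, the pseudocount, the brightness filter, the block, the variance trend, the rats included and the covariates.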

Additional observations from a re-analysis of the deposited data

Results flagged for a closer look

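Among the right minus left changes of 34 genes and probe sets and the means of 32 gene lists, 7 had 1 rat standing apart from the other 7, with a gap to its nearest neighbour above 0.526 of the whole range. Chance gives about 1 such case in 20. Rat 5, an ACTH rat, stood apart for Amhr2 at 0.544 (others 0.0526 to 0.261), for Rps6kb1 at -0.665 (others -0.255 to -0.121) and for Hsd11b2 at 0.91 (others -0.0313 to 0.277). It also stood apart for the mean of the distal convoluted and connecting tubule genes at 0.691 (others 0.0348 to 0.29) and of the kidney injury genes at 0.401 (others -0.17 to 0.0994). Rat 3, a DEX rat, stood apart for Sgk1 at 1.42 (others -0.209 to 0.36). Rat 1, an ACTH rat, stood apart for the spleen and B cell genes at -0.855 (others -0.172 to 0.128).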

How the results depend on the processing

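Of the 7 probe sets called between the sides, all 7 were called again after quantile normalization, after median centring and with pseudocounts of 1 and 64. The count was 9 without the brightness filter and 4 with the 60% dimmest left out. It was 36 with the fat score as a covariate, 114 with treatment terms and the treatments weighted equally, and 81 with the rats weighted equally. It was 0 for the change of the saline rats in the fit of all 8 rats with treatment terms. It was 1 in rats 1 to 4, 0 in rats 5 to 8 and 1 with the GAPDH covariate. Leaving out 1 rat gave 4 to 8. Without the replicate block the count was 0, with 237 at an unadjusted p under 0.05 in limma, and the F test gave 11. The F test's 17 became 7 with the fat score, 39 with a term for the right kidneys of rats 5 to 8, 65 with the GAPDH covariate, and 5 to 91 when 1 rat was left out. The number lower in all 8 rats was 54, against 106 without the brightness filter and 26 with the 60% dimmest left out. The direction of Sgk1 reversed in the estimate for the saline rats, at -0.10. The GAPDH covariate and the equal weighting of rats were chosen after the data were seen. Cdc42 lost its call in 13 of 23 alternatives and M13100cds#5_s_at in 10 of 23, against 4 of 24 for Scd2 rc_AA875269_at and 5 of 24 for Acaa1b. Fits on 4 rats have fewer degrees of freedom. The cause of the other shifts was not tested.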

Other observations

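Several genes outside the rule for those followed were chosen after their values were seen, and none of their probe sets passed adjustment in the paired fit. Ckb, the brain-type creatine kinase that buffers ATP, was higher on the right in all 8 rats on both of its probe sets tested, with changes of 0.34 ± 0.10 and 0.55 ± 0.11. Ctsd, the lysosomal protease cathepsin D, was higher in all 8 rats on both probe sets, at 0.36 ± 0.10 and 0.52 ± 0.12. Both genes changed more in the ACTH rats than in the saline rats. The means were 0.77 and 1.00 against 0.19 and 0.30 for Ckb, and 0.84 and 1.12 against 0.22 and 0.31 for Ctsd. None of these probe sets passed adjustment in the F test for a difference between treatments. Ctsb, cathepsin B, had 0.24 ± 0.06, higher in 7 of 8 rats. Eci1, a mitochondrial isomerase of fatty acid oxidation, had 0.39 ± 0.10 and 0.38 ± 0.09 on its probe sets.

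The probe sets of Slc34a1, the sodium phosphate transporter of the proximal tubule, disagreed. AB013453_at was lower on the right in all 8 rats, at -0.53 ± 0.10 (adjusted p = 0.0882). The 4 brighter probe sets of the gene had 0.04, 0.04, 0.28 and 0.08.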
